A study of Homo sapiens with 20 samples.

Results

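The sites described here are the SMC1A binding sites that M14 melanoma cells lost upon STAG2 knockdown. SMC1A peaks of 4 libraries were merged where they overlapped into 181087 sites on chromosomes 1 to 22 and X. Sites were thus selected on the SMC1A peak calls themselves. A site was called lost when both WT libraries had an SMC1A peak there and neither STAG2-KD library had one, which 2053 sites met (1.13% of all sites). Of the 63700 sites with a peak in both WT libraries, 2053 (3.22%) were lost and 55715 (87.5%) kept a peak in both STAG2-KD libraries, and the latter are called retained below. The mirror rule, a peak in both STAG2-KD libraries and in neither WT library, gave 4111 gained sites (2.27% of all sites).

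M14 is an established human melanoma line, used here with an integrated doxycycline-inducible shRNA against STAG2 and grown under puromycin selection. STAG2-KD cells received doxycycline for 5 days before crosslinking and WT cells received none, so that both carried the shRNA construct. The labels state this treatment for the libraries of the first replicate, and those of the second are labelled only as WT or STAG2-KD. ChIP-seq was performed with antibodies against STAG1, STAG2, CTCF and SMC1A, with 2 WT and 2 STAG2-KD libraries each, which gave 16 peak lists. The replicates form sets that were prepared differently, with libraries size-selected on beads in the first (set 1) and on a gel in the second (set 2), and WT was compared with STAG2-KD within each set.

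Cohesin is a ring built from SMC1A, SMC3 and RAD21, to which either STAG1 or STAG2 is bound. The ring extrudes chromatin loops and is often halted where CTCF, a zinc finger protein, occupies its motif in the right orientation, so that loop anchors commonly carry cohesin and CTCF together. Cohesin with STAG2 is also found at enhancers and promoters away from CTCF. An SMC1A peak does not distinguish rings with STAG1 from rings with STAG2.

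The lists allowed each library's depth to be recovered, which was 20.2 to 46.7 M reads in set 1 and 37.4 to 71.7 M in set 2. For SMC1A, the STAG2-KD library held 1.10 times the reads of the WT library in set 1 and 0.987 times in set 2. The STAG2 lists, which report on the target of the knockdown, held 79048 peaks in WT and 58418 in STAG2-KD in set 1, and 118984 and 106135 in set 2. Lists of set 1 were limited to −log10 q-values of at least 2 and those of set 2 to −log10 p-values of at least 2, so set 2 lists included weaker peaks.

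Sequences of 6 lost sites are shown because the binding patterns described below are represented among them. Each is the 201 bases around the site midpoint on the plus strand of hg19, in lower case, with matches to the searched words in capitals. MAN2A1 (chr5:109179866-109180066, intron) was the strongest lost site in WT cells. ADCY5 (chr3:123166918-123167118) and R3HDM2 (chr12:57824856-57825056) were promoter sites that also lost STAG2. In the ADCY5 window the capitals mark a GC box on the minus strand, and then another GC box that runs into a CTCF core motif on the plus strand. CHST8 (chr19:34175221-34175421), a promoter site with a GC box on the minus strand, had no peak of the other antibodies. ARHGAP6 (chrX:11577102-11577302, intron) lost STAG2 but kept CTCF, and the capitals mark a CTCF core motif on the minus strand. NDUFA8 (chr9:124907205-124907405, intron) had STAG1 peaks only in STAG2-KD cells, and the capitals mark the E-box word CATGTG on the minus strand. The MAN2A1 and R3HDM2 windows held none of the 6 words.
MAN2A1: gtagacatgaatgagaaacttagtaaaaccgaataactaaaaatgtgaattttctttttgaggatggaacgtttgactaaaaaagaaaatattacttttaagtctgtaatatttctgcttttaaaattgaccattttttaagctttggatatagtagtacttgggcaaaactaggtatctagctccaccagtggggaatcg
ADCY5: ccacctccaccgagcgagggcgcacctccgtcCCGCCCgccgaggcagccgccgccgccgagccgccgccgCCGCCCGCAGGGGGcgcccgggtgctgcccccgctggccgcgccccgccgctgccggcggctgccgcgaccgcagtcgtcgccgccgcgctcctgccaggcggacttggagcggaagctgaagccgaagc
R3HDM2: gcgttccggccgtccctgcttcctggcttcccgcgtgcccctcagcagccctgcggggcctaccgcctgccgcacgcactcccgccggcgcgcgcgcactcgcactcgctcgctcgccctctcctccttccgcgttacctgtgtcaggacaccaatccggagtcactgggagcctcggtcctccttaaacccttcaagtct
CHST8: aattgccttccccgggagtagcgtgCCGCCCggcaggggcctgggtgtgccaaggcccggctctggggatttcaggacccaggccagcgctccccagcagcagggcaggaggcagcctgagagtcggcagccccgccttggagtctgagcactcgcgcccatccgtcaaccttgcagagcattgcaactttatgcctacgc
ARHGAP6: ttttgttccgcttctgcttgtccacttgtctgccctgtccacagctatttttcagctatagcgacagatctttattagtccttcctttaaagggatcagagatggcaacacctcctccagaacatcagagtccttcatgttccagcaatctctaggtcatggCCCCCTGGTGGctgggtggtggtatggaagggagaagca
NDUFA8: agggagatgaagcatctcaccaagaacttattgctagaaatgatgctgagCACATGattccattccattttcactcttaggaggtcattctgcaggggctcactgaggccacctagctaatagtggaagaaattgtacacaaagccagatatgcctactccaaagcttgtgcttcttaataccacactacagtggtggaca

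Lost sites were weak SMC1A sites in WT cells. SMC1A chose the sites, so these strengths are a description. Peaks were ranked within each list by −log10 p-value and placed on a percentile scale, on which 100 is the strongest peak. In WT set 1 the lost sites had a median percentile of 16.5 (range 0.0122 to 60.9) and a median fold enrichment of 4.45 (2.07 to 9.01). In WT set 2 the median percentile was 44.1 (0.171 to 75.6) and the median fold enrichment was 3.4 (1.54 to 6.81). Retained sites had median percentiles of 65.0 and 81.1 and median fold enrichments of 9.69 and 8.83 in the same libraries. Only 31 lost sites (1.51%) reached the 50th percentile in both WT libraries, whereas 38467 retained sites (69.0%) did. Lost sites were also narrower, with a median width of 332 bp (150 to 1406) against 1115 bp for retained sites and 390 bp for gained sites.

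The share of WT sites that was lost decreased with WT strength. Sites were binned by the lower of their percentiles in the WT lists. In the weakest bin, under the 10th percentile, 17.5% of 4089 sites were lost. The share was 12.9%, 7.99% and 4.60% in the next bins of 10 percentiles, and 0.343% of 45217 sites from the 40th percentile up. In all, 155 lost sites were in the last bin.

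The call depended on both STAG2-KD lists being empty at the site. A further 5867 sites (9.21% of sites with a peak in both WT lists) lacked a peak in STAG2-KD set 1 but had one in STAG2-KD set 2, where its median percentile was 42.9 and its median −log10 q-value 4.27. Only 65 sites (0.102%) had a peak in STAG2-KD set 1 and none in STAG2-KD set 2. The median of the lower WT percentile was 15.3 for the lost sites, 22.7 for the former and 33.9 for the latter. Within set 1 alone 15675 sites had an SMC1A peak in WT only, and within set 2 alone 38335 sites did, so that requiring both sets removed most calls of either.

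Gaps to other SMC1A sites were measured for lost sites only, so no share over other sites stands beside them. The gap to the nearest SMC1A site with a STAG2-KD peak had a median of 2.67 kb, and 564 lost sites (27.5%) had one within 500 bp. The nearest retained site was a median of 8.55 kb away, and 1102 lost sites (53.7%) had one within 10000 bp. The next lost site was a median of 235 kb away, and 126 lost sites (6.14%) had another within 10000 bp. Whether this spacing differs from that of other sites was not tested.

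STAG2, whose peaks were not used to choose the sites, was present at fewer lost sites in STAG2-KD than in WT cells in both sets. In set 1, 29.4% of lost sites had a STAG2 peak in WT (604 of 2053, Wilson 95% interval 27.5 to 31.4) and 4.53% in STAG2-KD (93 sites, 3.71 to 5.52). In set 2, 57.3% had one in WT (1177 sites, 55.2 to 59.5) and 26.8% in STAG2-KD (550 sites, 24.9 to 28.7). The intervals cover counting error over sites only. The WT and STAG2-KD values did not overlap within a set, but the WT value of set 1 and the STAG2-KD value of set 2 were close. The mean was 43.4% ± 19.7 in WT and 15.7% ± 15.7 in STAG2-KD (SD, n = 2), a difference of −27.7 percentage points (two-sided exact permutation test over libraries, p = 0.333, the smallest it can give, and 0.667 adjusted over 6 tests). Taken within sets the difference was −24.9 and −30.5 percentage points, with an SD of 4.00. With sites called lost from 1 set alone it was −23.6 in set 1 and −14.6 in set 2. With lists of equal length per antibody the mean difference was −16.3 percentage points.

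**Figure D1:**
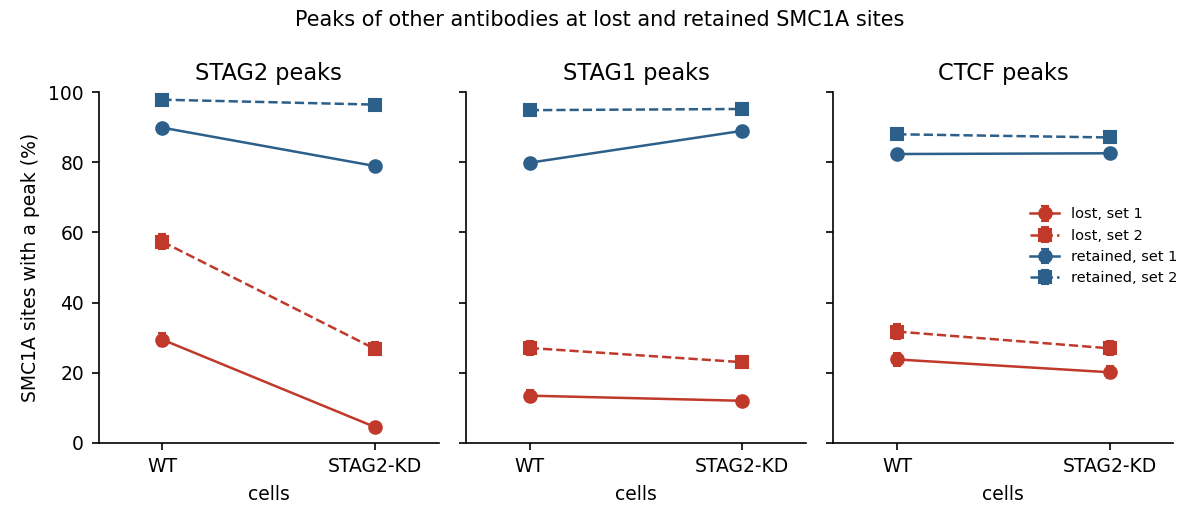
Share of SMC1A sites (%, vertical axis) with a STAG2, STAG1 or CTCF peak in WT and STAG2-KD cells, for 2053 lost (red) and 55715 retained (blue) sites. Each point is 1 library with its Wilson 95% interval, and lines join libraries of set 1 (circles, solid) and set 2 (squares, dashed). STAG2 at lost sites was at 29.4% and 57.3% in WT and at 4.53% and 26.8% in STAG2-KD.

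At retained sites STAG2 was present in 89.8% and 97.8% of sites in WT and in 78.9% and 96.4% in STAG2-KD, so the change there was −10.9 and −1.40 percentage points. Over all SMC1A sites STAG2 was present at 37.5% and 55.5% in WT and at 28.8% and 51.5% in STAG2-KD. At gained sites, chosen by the mirror rule, the shares were 8.59% and 30.6% in WT and 6.69% and 42.0% in STAG2-KD. Lost sites were chosen for the absence of SMC1A in STAG2-KD and gained sites for its presence there. How this choice bears on the other antibodies was not tested. The change at lost sites minus the change at retained sites was −14.0 in set 1 and −29.1 in set 2, a mean of −21.6 ± 10.7 percentage points (SD, n = 2, exact sign-flip test p = 0.5, the smallest that 2 sets allow). The SMC1A and STAG2 libraries of a condition and set were called against the same input, so they are not wholly independent. With lists of equal length per antibody, STAG2 shares at retained sites were 82.8% in WT and 82.3% in STAG2-KD in set 1. In set 2 they were 84.9% and 85.0%, so the lower value in STAG2-KD was not seen there. The change at lost minus that at retained sites was then −16.1 percentage points in the mean.

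Among the lost sites with a STAG2 peak in WT, 86.6% (523 of 604) had no STAG2 peak in STAG2-KD in set 1 and 55.5% (653 of 1177) in set 2. The corresponding shares at retained sites were 13.9% and 2.22%. Where the STAG2 peak was still called at a lost site, its percentile was lower in STAG2-KD, by a median difference of −26.3 over 81 sites in set 1 and −20.3 over 524 sites in set 2. At retained sites this difference was −7.80 and −2.27. Percentiles are ranks within a list, here and for STAG1 and CTCF below, so they also depend on list length. The STAG2 lists were shorter in STAG2-KD, with 58418 against 79048 peaks in set 1 and 106135 against 118984 in set 2. How far list length accounts for these differences was not tested.

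In 251 lost sites (12.2%) STAG2 met the same rule as SMC1A, being called in each WT library and no STAG2-KD library. Over all SMC1A sites this share was 1.37%, and over sites with SMC1A in both WT lists it was 1.51%. Of the 600 lost sites with STAG2 in both WT lists, 251 (41.8%) lost it in both sets and 80 (13.3%) had it in all 4 lists. In retained sites with STAG2 in both WT lists these shares were 0.846% and 86.1%. STAG2 was absent from all 4 lists at 847 lost sites (41.3%, against 39.3% of all SMC1A sites), gained in both sets at 3 (0.146%, against 0.158% of all SMC1A sites and 0.111% of those in both WT lists), and mixed between sets or libraries at the other 872 (42.5%).

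STAG1 shares at the lost sites were lower in STAG2-KD by a few percentage points in both sets. In set 1, 13.4% of lost sites had a STAG1 peak in WT (Wilson 95% interval 12 to 15.0) and 12% in STAG2-KD (10.6 to 13.5). In set 2, 27% had one in WT (25.2 to 29.0) and 23% in STAG2-KD (21.2 to 24.9). The means were 20.2% ± 9.61 and 17.5% ± 7.78 (SD, n = 2), a difference of −2.75 percentage points (exact permutation test, p = 0.667, and 0.667 adjusted). Within sets it was −1.46 and −4.04, with an SD of 1.83. With lists of equal length per antibody the difference was −7.26 percentage points. The direction turned when sites were called lost from set 1 alone, where the STAG1 share was 4.88 percentage points higher in STAG2-KD, and from set 2 alone the difference was −0.284.

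At retained sites the STAG1 share went from 79.9% to 88.9% in set 1 and from 94.8% to 95.2% in set 2. Over all SMC1A sites it went from 31.0% to 38.9% and from 46.8% to 48.1%. At gained sites, chosen by the mirror rule, it went from 7.20% to 24.9% and from 28.7% to 35.3%. The change at lost sites minus that at retained sites was −10.5 and −4.38 percentage points, a mean of −7.46 ± 4.36 (SD, n = 2, exact sign-flip test p = 0.5). With lists of equal length the STAG1 shares at retained sites were 83.0% and 83.2% in set 1 and 86.3% and 85.9% in set 2, so the higher value in STAG2-KD was not seen there. Where WT cells had no STAG1 peak, STAG2-KD cells had one at 4.50% and 8.74% of lost sites and at 52.4% and 46.4% of retained sites in sets 1 and 2. Retained sites were chosen for SMC1A peaks in STAG2-KD and lost sites for their absence. The median lower WT SMC1A percentile was 15.3 at lost and 65.0 at retained sites, so this contrast is a description. STAG1 was gained in both sets at 29 lost sites (1.41%), against 1.59% of all SMC1A sites and 1.13% of those in both WT lists. It was lost in both sets at 48 (2.34%), against 0.323% and 0.468%. STAG1 peaks called in both conditions at lost sites moved by a median of 1.36 and −1.68 percentiles.

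CTCF was present at a minority of lost sites in every library, with slightly lower shares in STAG2-KD. Over all SMC1A sites CTCF was also at a minority, with 37.4% and 47.6% in WT and 38.8% and 47.0% in STAG2-KD in sets 1 and 2. At gained sites, chosen by the mirror rule, the shares were 16.9% and 30.1% in WT and 25.3% and 34.5% in STAG2-KD. In set 1, 23.8% of lost sites had a CTCF peak in WT (Wilson 95% interval 22 to 25.7) and 20.1% in STAG2-KD (18.4 to 21.9). In set 2, 31.7% had one in WT (29.7 to 33.8) and 26.9% in STAG2-KD (25.1 to 28.9). The means were 27.7% ± 5.61 and 23.5% ± 4.82 (SD, n = 2), a difference of −4.21 percentage points (exact permutation test, p = 0.667, and 0.667 adjusted). Within sets it was −3.65 and −4.77 percentage points, and the change at lost minus that at retained sites was −3.86 in both sets (exact sign-flip test p = 0.5). With sites called lost from 1 set alone the difference at lost sites was −0.931 in set 1 and −3.46 in set 2. CTCF was in all 4 lists at 380 lost sites (18.5%), against 34.5% of all SMC1A, 80.7% of retained and 15.5% of gained sites. It was lost in both sets at 30 (1.46%, against 0.356% of all SMC1A sites and 0.372% of those in both WT lists). It was gained in both sets at 4 (0.195%, against 0.35% and 0.181%). The CTCF peaks called in both conditions at lost sites had lower percentiles in STAG2-KD, by −7.78 and −9.25 in the median, and those at retained sites differed by 0.776 and −0.993.

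The makeup of the lost sites in WT cells differed from that of the retained sites. No CTCF peak was called in either WT list at 1398 lost sites (68.1%), compared with 12% of retained, 69.7% of gained and 51.7% of all SMC1A sites. STAG1 and STAG2 were together in both WT lists at 232 lost sites (11.3%) at 77.7% of retained sites and at 28.3% of all sites. STAG2 in both WT lists with STAG1 in neither was found at 221 lost sites (10.8%), 1.77% of retained, 2.09% of gained and 2.36% of all sites. The reverse, STAG1 without STAG2, was found at 11 lost sites (0.536%), 0.228% of retained, 0.924% of gained and 0.352% of all sites. At 639 lost sites (31.1%) none of the 12 lists of the other antibodies had a peak, close to the 29.3% of all SMC1A sites and 30.2% of gained sites, and against 0.418% of retained sites.

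Loss of STAG2 at these sites was more frequent where STAG1 or CTCF was not called. Of the lost sites with STAG2 in both WT lists, STAG2 was lost in both sets at 63.3% (140 of 221) where STAG1 was in neither WT list and at 23.7% (55 of 232) where STAG1 was in both. With CTCF in neither WT list it was lost at 53.9% (145 of 269), and with CTCF in both at 29.8% (86 of 289). Retained sites followed the same order at lower values, with 8.83% and 0.501% by STAG1 and 2.63% and 0.662% by CTCF. Of the 251 lost sites that lost STAG2 in both sets, STAG1 was absent throughout at 128, in all 4 lists at 24 and gained at 2. CTCF was absent throughout at 144 of them and in all 4 lists at 70. Among all 2487 SMC1A sites that lost STAG2 in both sets, the STAG1 counts were 978, 370 and 77 in the same order. The CTCF counts among these were 1276 and 851. These counts share the same threshold calls and were not tested.

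Since lost sites were weak, they were set beside retained sites of the same WT SMC1A strength. In the weakest bin, 714 lost and 2065 retained sites, STAG2 was called in WT at 21.4% and 49.6% of lost sites and at 55.0% and 87.7% of retained sites in sets 1 and 2. In STAG2-KD it was called at 3.08% and 21.1% of lost sites and at 32.6% and 85.3% of retained sites. STAG2 was lost in both sets at 10.2% of lost and 1.84% of retained sites in this bin, and at 21.3% and 0.510% in the bin from the 40th percentile up. CTCF in WT set 1 was called at 14.7% of lost and 41.8% of retained sites in the weakest bin and at 44.5% and 90.7% in the strongest. The lost and retained sites thus differed in these STAG2 and CTCF shares within each bin of strength, although sites within the last bin still differ in strength.

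**Figure D2:**
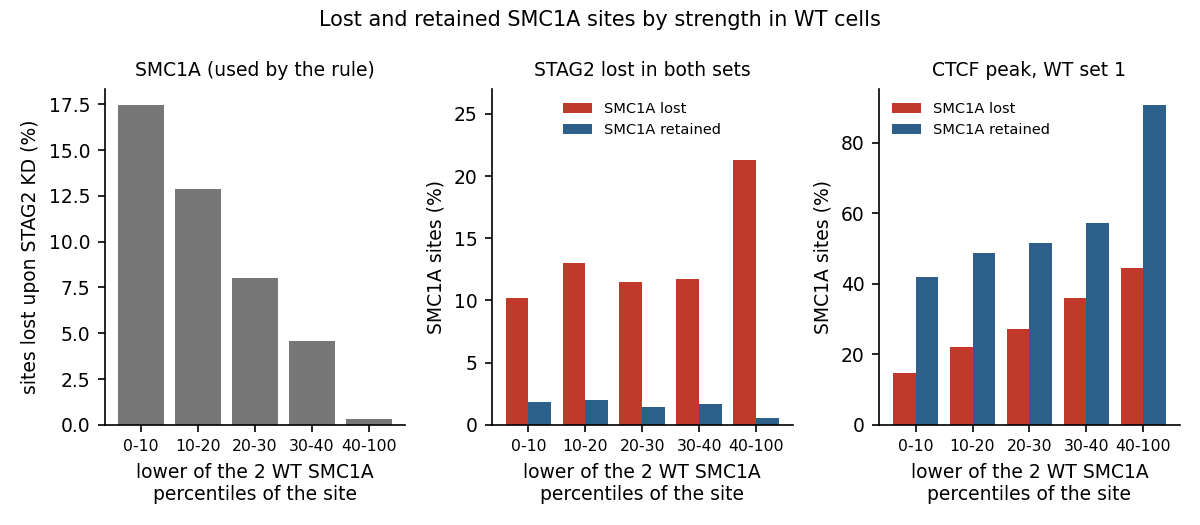
Left, share of SMC1A sites with peaks in both WT lists that were lost (%), by bins of the lower WT SMC1A percentile. Middle and right, share of lost (red) and retained (blue) sites in each bin that lost STAG2 in both sets or had a CTCF peak in WT set 1 (%); the STAG2 share was 10.2% to 21.3% at lost and 0.510% to 1.98% at retained sites.

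Introns held the largest share of lost sites, as they did of all SMC1A sites. By the site midpoint, 1101 (53.6%, Wilson 95% interval 51.5 to 55.8) were in introns, 486 (23.7%, 21.9 to 25.6) were intergenic, 364 (17.7%, 16.1 to 19.4) were within 1 kb of a transcript start and 102 (4.97%, 4.11 to 6.0) were in exons. Retained sites were in introns at 41.3% and at promoters at 27%, and gained sites at 46.9% and 16.8%. Over all SMC1A sites these shares were 47.0% and 20.2%, and 27.5% were intergenic. The promoter share of lost sites depended on the processing, reaching 27.5% when a shared peak had to cover 50% of the shorter interval. That setting also took the unmerged SMC1A peaks of WT set 1 as its sites, so the effect of the overlap rule alone was not separated. At promoters STAG2 was called at 15.4% and 42.3% of lost sites in WT and at 4.67% and 19.2% in STAG2-KD, compared with 32.9%, 61.8%, 4.90% and 28.4% in introns. STAG2 was lost in both sets at 27 promoter sites (7.42%) and 148 intronic sites (13.4%). CTCF was lost in both sets at 0 promoter sites and 20 intronic sites (1.82%). These shares by place were taken for lost sites only, so no share over other SMC1A sites stands beside them. Whether the difference between promoters and introns is particular to lost sites was not tested.

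**Figure D3:**
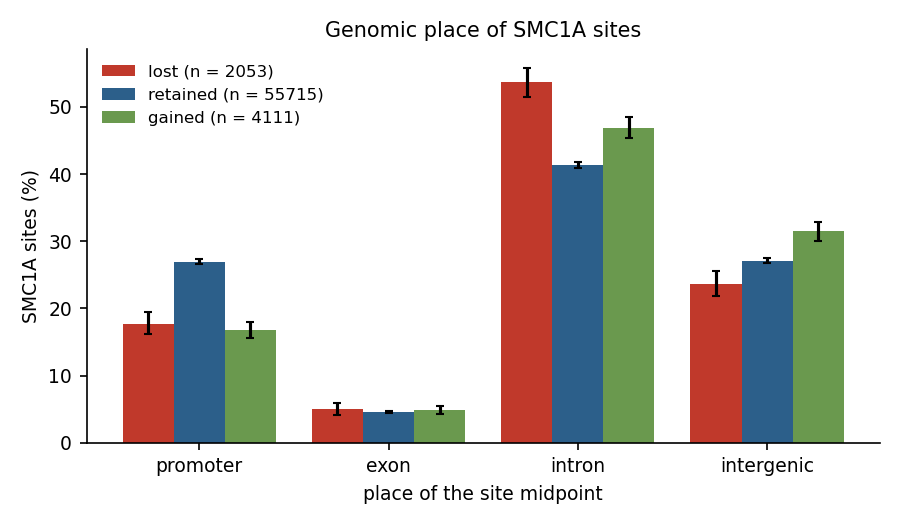
Share of lost (red), retained (blue) and gained (green) SMC1A sites (%) by the place of the midpoint, with Wilson 95% intervals over sites. Introns hold 53.6% of lost, 41.3% of retained and 46.9% of gained sites, and 47.0% of all SMC1A sites, which are not drawn.

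The share of WT sites that was lost ranged over chromosomes from 0.949% on X (17 of 1792) and 1.62% on chromosome 14 (27 of 1665) to 4.12% on chromosome 20 (83 of 2016). The highest number in any window of 1 Mb was 8, found in 3 windows on chromosomes 1, 12 and 15, where 77, 59 and 63 sites had SMC1A peaks in both WT lists.

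Of the 10 lost sites that were strongest in WT cells, 7 had a STAG2 peak in WT and 3 in STAG2-KD in set 1, and 9 and 5 in set 2. The strongest was in an intron of MAN2A1, which encodes a Golgi mannosidase of N-glycan processing (chr5:109179744-109180187). SMC1A had fold enrichments of 9.01 and 6.25 there in WT sets 1 and 2 and no peak in STAG2-KD. STAG2 went from 24.8 in WT to 7.17 in STAG2-KD in set 1 and from 20.4 to 10.7 in set 2. STAG1 went from 20.2 to 12.7 and from 13.2 to 10.3, and CTCF from 24.5 to 13.8 and from 21.5 to 11.3, so that every antibody had a lower value in STAG2-KD in both sets. An intronic site in PROS1, which encodes the anticoagulant protein S, had SMC1A at 7.53 and 5.50 in WT (chr3:93625035-93625445). STAG2 went there from 18.4 to 7.44 and from 11.4 to 6.87, while STAG1 had 8.79 and 10.3 in set 1 and 4.80 and 6.77 in set 2. PPARGC1B, a transcriptional coactivator of mitochondrial genes, had a pair of lost sites in introns. At the stronger one (chr5:149155349-149156005) STAG2, STAG1 and CTCF peaks were called in every library, and CTCF was at 21.4 and 13.6 in WT and 25.5 and 21.3 in STAG2-KD. At the other (chr5:149146743-149147022) the only peak besides SMC1A was STAG2 in WT set 2, at 4.45. The site in an intron of CHODL, a C-type lectin-like protein, had no peak of the other antibodies (chr21:19468625-19469022). The remaining sites were in introns of ACBD6 and RSU1, at promoters of ADCY5 and R3HDM2, and in an intron of a noncoding gene for which NFE2L3 was the nearest protein-coding gene.

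The strongest lost sites at promoters of protein-coding genes fell into groups with and without the other proteins. At ADCY5, an adenylyl cyclase, the site shown above (chr3:123166828-123167208) had SMC1A fold enrichments of 8.72 and 4.63 in WT. STAG2 had 4.67 and 2.85 in WT and no peak in STAG2-KD, STAG1 had no peak in any library, and CTCF remained, at 30.9 and 27.2 in WT and 25 and 19.8 in STAG2-KD. At R3HDM2 (chr12:57824787-57825124) SMC1A had 8.06 and 4.57 and STAG2 4.24 and 3.51 in WT, neither had a peak in STAG2-KD, and CTCF had a single peak of 3.53 in WT set 2. The promoter site of AUTS2, a regulator of neuronal gene expression (chr7:69598983-69599261), lost STAG2 peaks of 5.46 and 3.53 and kept STAG1, at 7.06 and 3.54 in WT and 3.70 and 3.02 in STAG2-KD. The promoter sites of CHST8, a GalNAc sulfotransferase, TBX2, a T-box repressor, MIEF2, a mitochondrial fission adaptor, and SNX1, an endosomal sorting nexin, had SMC1A peaks in WT and no peak of the other 3 antibodies in any library.

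The 8 strongest lost sites that also lost STAG2 in both sets mostly lacked STAG1. STAG1 had no peak in any library at 6 of them, and CTCF had at least 1 peak at 7. At the ARHGAP6 intron (chrX:11576938-11577466), SMC1A had 7.42 and 4.63 and STAG2 4.18 and 3.46 in WT, with no peak of either in STAG2-KD. CTCF was strong there, at 42.7 and 32.2 in WT and 22.8 and 17.7 in STAG2-KD. A site in an exon of the noncoding gene LINC00662 (chr19:28266807-28267372), for which UQCRFS1 was the nearest protein-coding gene, had the same pattern, with STAG2 at 5.77 and 5.52 in WT and CTCF at 27.4 and 18.6 in WT and 19.4 and 18.1 in STAG2-KD. A site annotated as exonic within the overlapping genes CHFR, a mitotic checkpoint ubiquitin ligase, and ZNF605 (chr12:133498312-133498729) kept STAG1, at 6.94 and 3.83 in WT and 5.30 and 4.12 in STAG2-KD. Sites 187 kb from the start of DACT1, an antagonist of Wnt signalling, and 17.7 kb from that of AIM2, a sensor of cytosolic DNA, had no STAG1 peak. Near AIM2 (chr1:159025121-159025581) CTCF had 4.32 and 28.3 in WT and a single peak of 2.97 in STAG2-KD set 2.

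STAG1 peaks appeared without an SMC1A call at the 5 strongest of the 29 lost sites where STAG1 was gained. In the NDUFA8 intron, in the gene of a complex I subunit (chr9:124907047-124907562), STAG1 had no peak in WT and had 5.38 and 2.52 in STAG2-KD, SMC1A had 7.42 and 5.18 in WT, and CTCF lay between 18.5 and 26.6 in all 4 libraries. In the CCDC13 intron (chr3:42752948-42753462) STAG1 had 4.66 and 3.02 in STAG2-KD, and STAG2 went from 4.36 to no peak in set 1 and from 5.40 to 3.34 in set 2. Between genes, 137 kb from the start of SLC1A3, a glutamate transporter (chr5:36459585-36460022), STAG1 had 3.45 and 2.52 in STAG2-KD. STAG2 had 6.24 and 6.34 there in WT and 3.41 in STAG2-KD set 2. At a site 116 kb from the start of SLITRK1 (chr13:84339901-84340203) STAG1 had 3.03 and 2.93, and CTCF had no peak. The fifth of these sites was at the start of the noncoding gene RN7SKP249, 62.7 kb from ZNF706, its nearest protein-coding gene. STAG2 was called in STAG2-KD set 2 at all 5 and in STAG2-KD set 1 at 0.

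Lost sites that also lost CTCF in both sets were 30. In the intron of KDM3B, a histone demethylase (chr5:137746198-137746386), CTCF had 8.80 and 6.13 in WT, and neither STAG1 nor STAG2 had a peak in any library. Among the strongest of these, intergenic sites had PDIA4, PTBP2 and TSC22D2 as their nearest protein-coding genes. Their distances to the transcript starts were 26.7, 234 and 34.0 kb. Near TSC22D2 (chr3:150091616-150092504) CTCF had 6.94 and 12.5 and STAG2 6.98 and 7.63 in WT, with no peak of either in STAG2-KD.

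A lost site lay within 10 kb of 1505 of 20090 protein-coding genes (7.49%). Of 8 gene lists relevant to melanoma and to STAG2, the melanocyte lineage list stood highest, with 6 of 18 genes (33.3%) and 11 of the 112 WT SMC1A sites near its genes lost (9.82%, against 3.22% of all sites in both WT lists). The sites near PAX3 and near EDNRB, with 3 each, are not independent of each other. Under the alternatives that kept both sets the list had 5 genes (with 5.65% of all protein-coding genes at the stricter threshold) to 10 genes (with 16.4% of all genes at the 50% overlap) near a lost site. At the 50% overlap the sites were the unmerged SMC1A peaks of WT set 1. With sites called from set 1 alone it had 13 genes, with 40.3% of all genes, and from set 2 alone all 18, with 55.4%. No test of the list was made, and gene length and the number of sites per gene differ between genes.

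The melanocyte lineage sites were weak, with lower WT percentiles of 0.773 to 31.9, and none of the 11 had a CTCF peak in any library. STAG2 was called at 2 of them in WT and 1 in STAG2-KD in set 1, and at 7 and 3 in set 2. At PAX3, a transcription factor of the neural crest and melanocyte lineage, there were intronic sites at chr2:223156908-223157653 and chr2:223112875-223114024 and an intergenic site at chr2:223063418-223063594. Their SMC1A fold enrichments in WT sets 1 and 2 were 4.56 and 3.74, 3.59 and 4.50, and 4.45 and 3.15. At EDNRB, the endothelin receptor needed for melanoblast development, the intergenic site chr13:78465507-78466343 had SMC1A at 5.25 and 5.09, and STAG2 in set 2 was at 4.30 in WT and 3.93 in STAG2-KD. An intronic EDNRB site (chr13:78543265-78544014) had STAG2 at 6.64 in WT and no peak in STAG2-KD in set 1, and 6.0 and 3.44 in set 2. At the promoter of SLC24A5, a melanosomal ion exchanger (chr15:48413840-48414032), SMC1A had 4.28 and 3.4 in WT and STAG2 a single peak of 4.58 in WT set 2. In an intron of TRPM1, a cation channel of melanocytes (chr15:31392386-31392587), SMC1A had 4.14 and 2.73 and STAG2 a single peak of 10.5 in WT set 2. The sites at DCT, an enzyme of melanin synthesis, and at TFAP2A, a transcription factor of the neural crest, had no STAG2 peak in any library.

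In the other lists 4.55% to 11.8% of genes had a lost site nearby, around the 7.49% of all genes. A lost site was near 2 of 34 interferon-stimulated genes (5.88%), SAMD9L and GBP2, and near 2 of 21 interferon receptors and signal transducers (9.52%), IRF1 and IRF4. B2M, the light chain of MHC class I, was the 1 of 18 antigen presentation genes. Its intronic site (chr15:45005712-45006318) had SMC1A at 5.30 and 3.76 in WT, and STAG2 went from 21.1 to 10.3 and from 9.46 to 6.31 while STAG1 had 5.83 and 7.74 in set 1 and 3.78 and 3.52 in set 2. At IRF4, a transcription factor of lymphocytes and melanocytes, an exonic site (chr6:408563-408803) had SMC1A at 4.66 and 4.47 in WT, STAG2 at 7.39 and 3.69 in WT and 4.29 in STAG2-KD set 2, and STAG1 at 5.05 and 3.96 in STAG2-KD only. SPRY4 and SPRED1, feedback inhibitors of MAPK signalling, were 2 of 17 MAPK genes (11.8%). TEAD1 was the 1 of 18 dedifferentiated state genes and SMC1B the 1 of 22 cohesin genes. The SMC1B site overlapped the start of that gene and was also at the promoter of its neighbour RIBC2.

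**Figure D4:**
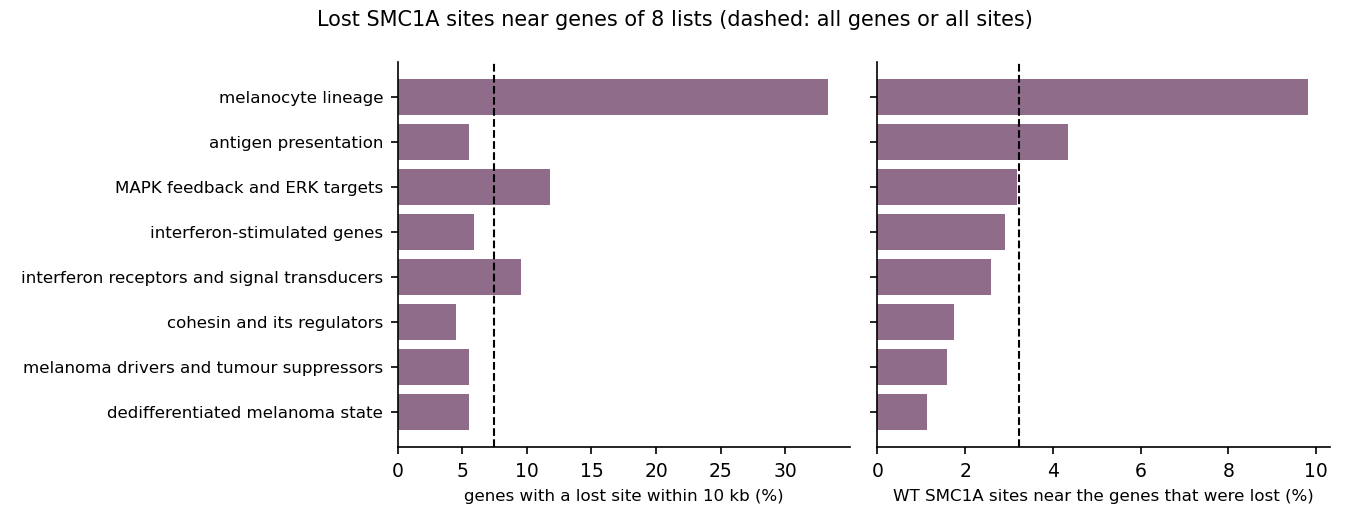
Left, share of the genes of each list with a lost SMC1A site within 10 kb (%), with the share of all protein-coding genes, 7.49%, as a dashed line. Right, share of the WT SMC1A sites near the genes that were lost (%), with the share over all such sites, 3.22%, as a dashed line; the melanocyte lineage list is at 33.3% and 9.82%.

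By number of lost sites, LAMC1, a laminin chain, and SMAD3, a transducer of TGF-beta signals, came first with 6 each, of 14 and 27 WT sites. MPPED2, a phosphoesterase, had 5 of 14, TNIK, a kinase of Wnt signalling, 5 of 26, and AHR, the aryl hydrocarbon receptor, 5 of 24. These genes are 122 kb (LAMC1) to 430 kb (AHR) long, and the counts were not adjusted for length.

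The sequence of lost sites was compared with retained and gained sites and with windows 5 kb away. Words were searched on both strands within 100 bp of the midpoint. A CTCF core motif was found at 100 lost sites (4.87%), against 0.341% of windows 5 kb away, 15.9% of retained sites and 4.67% of gained sites. It was found at 16.1% of the 484 lost sites with CTCF in both WT lists and at 0.787% of the 1398 with CTCF in neither. The GC box GGGCGG was found at 7.60% of lost, 15.9% of retained and 8.20% of gained sites, and at 3.75% of windows 5 kb from lost sites. Median GC content was 45.8% at lost sites, 49.3% at retained sites and 48.3% at gained sites.

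The AP-1 word TGANTCA, bound by FOS and JUN family dimers, was less frequent at lost than at gained sites, a difference that was not tested over libraries. It was found at 6.09% of lost sites and 6.04% of windows 5 kb from them, whereas 28.8% of gained sites had it, and 5.81% of windows 5 kb from gained sites. Retained sites had it at 7.80%. Among sites with CTCF in neither WT list it was found at 6.08% of lost and 20.2% of retained sites, and among sites under the 40th WT percentile at 6.01% and 12.9%. The share at lost sites was 5.72% to 7.47% under all 7 alternatives, and that at gained sites was 23.3% to 28.7% under the 4 alternatives run with both sets and 17.0% and 18.2% within single sets.

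The other words differed less. The E-box words CACGTG and CATGTG, the latter part of the recognition element of MITF, were found at 2.68% and 14.2% of lost sites and at 1.56% and 12.1% of windows 5 kb away. The interferon element, GAAA repeated after any pair of bases, was found at 3.26% of lost sites and 3.12% of windows 5 kb away. A match to a word is not evidence that a factor is bound.

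**Figure D5:**
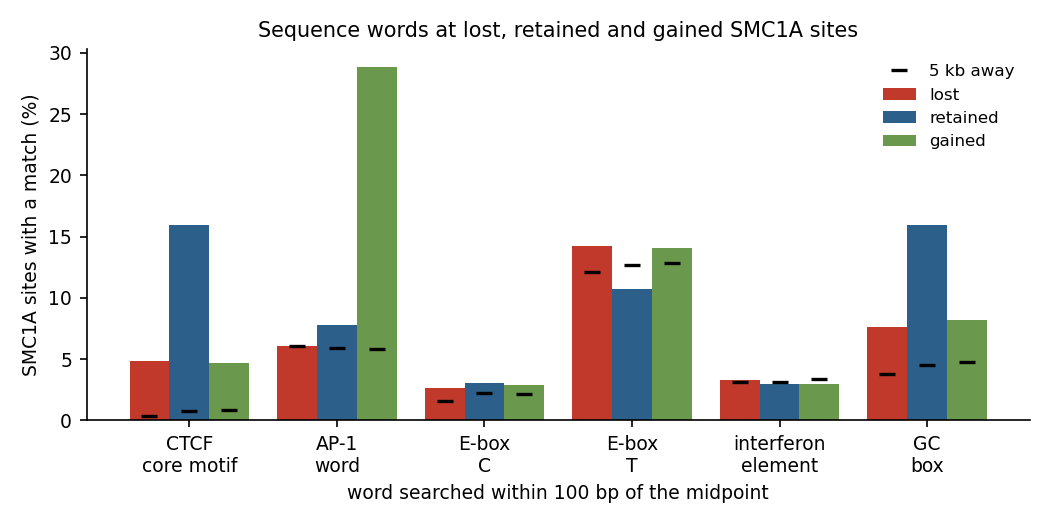
Share of lost (red), retained (blue) and gained (green) SMC1A sites (%) with a match to each word within 100 bp of the midpoint, and in windows 5 kb away (black bars). The AP-1 word is at 6.09% of lost and 28.8% of gained sites.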

How the data were processed

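ChIP-seq peak lists of 4 antibodies in WT and STAG2-KD M14 cells were analysed, 1 list per library. The study's methods describe alignment to hg19 by bowtie2, removal of duplicate and low-quality reads, and MACS2 peak calling with input as control. For replicate 2 the labels name BWA in place of bowtie2. For each peak the deposited lists hold a score, a −log10 p-value, a −log10 q-value and a fold enrichment over background (a ratio), all from the authors' peak calling. The score was not used. No list holds read counts, so presence or absence at the authors' thresholds was compared, which is not a test of differential binding.

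Peaks on chromosomes 1 to 22 and X were kept (0.145% to 4.76% of rows were left out) and SMC1A peaks overlapping by at least 1 bp were merged. A peak of another antibody belonged to a site that it overlapped by at least 1 bp. Depth was recovered from fold and p-value, under an assumed genome of 2.7 Gb and reads extended to the narrowest peak's width. Positions are 1-based hg19 with GENCODE v44lift37, and 0 sites ran past a chromosome end. Shares were compared over libraries by two-sided exact permutation and sign-flip tests with Benjamini-Hochberg adjustment. With 2 libraries a group these cannot go below 0.333 and 0.5. Nothing states that replicates were separate cultures, so p-values measure the spread between libraries. Replicate numbers mark a set with its own preparation and therefore pair WT with STAG2-KD by batch.

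Members, gene lists and rules were chosen with earlier results of these data known. Named sites were the 10 strongest, the 8 strongest at promoters and with STAG2 lost, the 5 strongest with STAG1 gained and with CTCF lost (strength being the lower WT percentile), sites near list genes, and the 5 genes with most lost sites. Some of these sites are not reported here. Alternatives were a common and a stricter threshold, equal list lengths, padding, a 50% overlap and each set alone. For the 50% overlap the sites were the unmerged SMC1A peaks of WT set 1, and the merged sites were not used. Functions were tested on simulated data. Python 3.11.15, pandas 2.3.3 and SciPy 1.17.1 were used.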

Additional observations from a re-analysis of the deposited data

Results flagged for a closer look

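The STAG1 share moved in opposite directions at lost and at retained SMC1A sites, since it was lower in STAG2-KD at lost sites and higher at retained sites in both sets. The change at lost minus that at retained sites was −7.46 percentage points in the mean. With 2 sets the exact sign-flip test cannot go below p = 0.5, and no other test of the difference was made. The opposite directions depended on the processing. With lists of equal length the share at retained sites was 83.0% in WT and 83.2% in STAG2-KD in set 1 and 86.3% and 85.9% in set 2. At the stricter threshold the share at lost sites of set 1 was 25% in WT and 25.1% in STAG2-KD, and with sites called from set 1 alone the share at lost sites was 4.88 percentage points higher in STAG2-KD.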

How the results depend on the processing

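The number of lost sites was 2053 as reported, 2432 at a common −log10 q-value of at least 2, 1473 at a stricter value of at least 5, 1933 with 500 bp of padding, 3779 with lists of equal length per antibody, 4651 when an overlap had to cover 50% of the shorter interval, and 15675 to 38335 with either set left out. The 50% setting counted unmerged SMC1A peaks of WT set 1, so its values differ from the others in the sites as well. The drop of the STAG2 share kept its direction under all 7 alternatives (−14.6 to −32.4 percentage points), as did that of the CTCF share (−0.931 to −5.07) and the changes at lost minus retained sites, which were −11.3 to −27.6 for STAG2, −1.49 to −8.09 for STAG1 and −1.29 to −4.88 for CTCF. The STAG1 share was −2.75 percentage points as reported and was 4.88 higher without replicate 2, while it was −0.284 without replicate 1 and −7.26 with equal lists. The share of lost sites that also lost STAG2, 12.2%, was 13.9% at the common threshold, 17.9% at the stricter one, 10.9% with equal lists, 9.22% with the 50% overlap and 17.1% to 25.4% with either set left out. The promoter share, 17.7%, was 21.3% at the stricter threshold, 21.1% with equal lists, 13.6% with padding, 27.5% with the 50% overlap and 16.1% to 32.3% with either set left out. The cause of these shifts was not tested. With WT and STAG2-KD paired by replicate the mean differences were −27.7 (STAG2), −2.75 (STAG1) and −4.21 (CTCF) percentage points. They equal the unpaired differences by construction. The exact sign-flip test gave p = 0.5 for each, and no call changed, since no test here can reach 0.05. The counts of list genes and the AP-1 shares under the alternatives were added after the data were seen. A site just under a threshold in both STAG2-KD libraries counts as lost, and how depth bears on such sites was not tested.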

Other observations

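Words of 3 further factor families were searched after the data were seen. The SOX word ACAAAG was found on either strand at 17.5% of lost sites and 14.8% of windows 5 kb away, the TEAD word GGAATG at 13.6% and 11.8%, and the TFAP2 word, GCC and GGC separated by any 3 bases, at 8.48% and 4.34%. At gained sites these were 16.5% and 13.9%, 15.3% and 10.4%, and 8.98% and 4.94%. At retained sites the TFAP2 word was at 11% and 4.39%.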
